A study of Mus musculus with 35 samples.

Results

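The chromatin regions called open in haematopoietic stem cells (HSCs) and in haematopoietic progenitor cells (HPCs) of 7-day-old mice lacking the type I interferon receptor were compared. The assay was ATAC-seq, in which the transposase Tn5 cuts accessible DNA and inserts sequencing adapters there, so that a pile of cut fragments (a peak) marks open chromatin. The authors deposited 1 peak list per group, pooled over its libraries. Peaks that touched or overlapped were joined into regions on chromosomes 1 to 19 and X. Regions of both lists that overlapped by at least 1 bp were called shared, and the rest specific to their list. The 2 knockout lists held 42459 HSC regions and 58567 HPC regions, 101026 of the 891747 regions in the 12 lists of the series.

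The series covers 35 ATAC-seq libraries of HSCs and HPCs at fetal, neonatal and adult ages on the B6 strain. The adult mice were 8 weeks old. The knockout HSC group had 2 libraries and the knockout HPC group 3, all from mice at postnatal day 7 with the genotype label Infnar_KO, which the study design gives as Ifnar-ko. The wild-type HSC and HPC groups of the same age and the same set of experiments had 3 libraries each. The HPC titles carry 48+LSK, where LSK is the field's shorthand for lineage-negative cells with Sca-1 and c-Kit on their surface; the sources used here do not name the tissue, the deleted receptor subunit or the sort gates. The title of 1 knockout HPC library ends in U3, a code otherwise used for a wild-type library, while its description reads Y3 and its genotype label says knockout. It was kept as labelled and could not be left out, because its reads are inside the pooled list. The other 8 lists, of fetal, P7, P14, P21 and adult cells, belong to the study's developmental set, which has no genotype field. The titles of its adult libraries carry WT, and those of its other libraries name no genotype. The descriptions of several libraries of that set name another group's list, and lists were taken by their own names. Where P7 lists are named without a set, the 4 knockout and wild-type lists are meant.

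HSCs are the rare, seldom dividing cells that renew themselves and feed every blood lineage, and HPCs are their near descendants, which divide more and begin to open lymphoid and myeloid genes. Type I interferons act through a receptor of the subunits IFNAR1 and IFNAR2 and signal through kinases to transcription factors that switch on interferon-stimulated genes. Open chromatin at promoters is shared widely between related blood cells, and distal regions, many of them enhancers, differ more between cell types.

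The promoters below show where the cell contrast fell on a gene's own start in both genotypes. Each runs from 250 bases before to 50 after the gene start, 5′ to 3′ along the gene (RefSeq, GRCm38.p6). Capitals mark matches on either strand to 10 motifs, each searched on its own, so that matches may overlap. Over all 21045 promoters, RUNX (TGTGGTT) matched in 4.74%, ETS (GGAAGT) in 24.97%, C/EBP (TTGCNNAA) in 10.3%, E-box (CAGCTG) in 15.7% and MEIS (TGACAG) in 18.3%. The motifs without a match in the 6 promoters were AGATAA, read by GATA factors (9.68%), AP-1 (TGANTCA, 7.04%), PAR bZIP (TTANGTAA, 2.13%), the IRF element (3.38%) and CTCF core (AGGGGGC, 13.0%). The first pair was called in HSCs alone and the other 4 in HPCs alone, in knockout and wild-type P7 mice alike. Cntn1 and Gpr55 had the highest value of each kind, and the others are members of the gene lists described further on. Cntn1 lies at chr15:92050915-92051214, plus strand, Il1r1 at chr1:40266336-40266635, plus strand, Cd48 at chr1:171681742-171682041, plus strand, Il7r at chr15:9529827-9530126, minus strand, Rag1 at chr2:101649483-101649782, minus strand and Gpr55 at chr1:85961006-85961305, minus strand.
Cntn1: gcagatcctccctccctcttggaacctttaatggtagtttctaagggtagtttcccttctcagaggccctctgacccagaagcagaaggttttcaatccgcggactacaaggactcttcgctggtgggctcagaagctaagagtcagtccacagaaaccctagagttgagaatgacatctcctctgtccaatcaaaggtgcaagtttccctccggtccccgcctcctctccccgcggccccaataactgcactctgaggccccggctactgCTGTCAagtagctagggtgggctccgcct
Il1r1: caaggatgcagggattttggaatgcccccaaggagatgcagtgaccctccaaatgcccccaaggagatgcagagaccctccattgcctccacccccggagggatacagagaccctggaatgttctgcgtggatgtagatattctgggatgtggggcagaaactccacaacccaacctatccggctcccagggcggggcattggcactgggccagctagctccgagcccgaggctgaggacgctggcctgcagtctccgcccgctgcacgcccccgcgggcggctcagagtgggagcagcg
Cd48: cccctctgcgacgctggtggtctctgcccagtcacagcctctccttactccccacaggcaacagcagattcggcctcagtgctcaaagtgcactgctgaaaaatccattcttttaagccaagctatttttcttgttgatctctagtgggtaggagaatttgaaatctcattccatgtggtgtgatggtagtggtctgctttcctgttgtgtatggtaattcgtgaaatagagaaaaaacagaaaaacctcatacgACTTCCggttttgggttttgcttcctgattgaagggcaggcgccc
Il7r: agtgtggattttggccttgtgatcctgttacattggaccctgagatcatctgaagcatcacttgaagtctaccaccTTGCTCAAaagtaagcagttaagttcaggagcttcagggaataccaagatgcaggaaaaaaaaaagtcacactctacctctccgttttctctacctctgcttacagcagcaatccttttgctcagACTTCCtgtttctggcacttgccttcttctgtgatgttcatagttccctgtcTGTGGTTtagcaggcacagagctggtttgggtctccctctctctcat
Rag1: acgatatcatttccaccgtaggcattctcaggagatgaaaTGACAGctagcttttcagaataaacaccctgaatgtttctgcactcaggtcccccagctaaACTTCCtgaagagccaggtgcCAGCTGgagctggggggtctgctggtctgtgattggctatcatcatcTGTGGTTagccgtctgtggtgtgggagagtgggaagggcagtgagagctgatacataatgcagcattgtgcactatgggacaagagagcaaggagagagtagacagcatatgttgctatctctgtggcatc
Gpr55: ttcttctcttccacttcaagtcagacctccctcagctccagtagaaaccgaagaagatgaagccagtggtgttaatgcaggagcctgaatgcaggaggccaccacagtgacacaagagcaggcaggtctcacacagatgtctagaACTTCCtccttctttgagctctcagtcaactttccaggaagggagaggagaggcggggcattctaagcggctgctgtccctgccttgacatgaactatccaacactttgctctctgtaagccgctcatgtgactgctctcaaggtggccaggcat

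Values below are the authors' −log10 p of the strongest peak in a region, each a value within its own list; they grow with depth and are not compared as levels between lists. At the Cd48 promoter, whose product separates progenitors from stem cells in common sorting schemes, no region was called in knockout or wild-type P7 HSCs, and the value was 51.9 in knockout and 53.6 in wild-type P7 HPCs. It was called in 1 of the 5 HSC lists and in all 7 HPC lists. If 48+ in the HPC titles stands for CD48, a sort marker, this bears on the labels and is no finding. Il7r encodes the interleukin-7 receptor chain of early lymphoid cells: its promoter had no region in knockout or wild-type P7 HSCs, and it had 106 in knockout and 209 in wild-type P7 HPCs. It was called in fetal, P14 and adult HSCs, at 135, 44.2 and 242. Rag1 encodes a recombinase of antigen receptor genes, and its promoter had 44.1 in knockout and 81.1 in wild-type HPCs, and no call in either P7 HSC list. Gpr55, a receptor for lysolipids, had 161 in knockout and 268 in wild-type HPCs, the highest promoter value among named genes with an HPC-specific promoter in both genotypes. On the HSC side, Cntn1, a neural adhesion protein, had 80.8 in knockout and 95.2 in wild-type P7 HSCs with no call in either P7 HPC list, although all 5 HPC lists of the developmental set had it. The promoter of Il1r1, the interleukin-1 receptor, had 37.3 in knockout and 36.6 in wild-type HSCs and no call in either P7 HPC list, while 4 of the 5 HPC lists of the developmental set had it; other regions of the gene were specific to HPCs, as given further on.

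The 12 lists held between 42459 and 91043 regions. The knockout HSC list covered 24.9 Mb with a median −log10 p of 51.0, and the knockout HPC list covered 36.2 Mb with a median of 78.4. The peak lists hold no read depth. In such bulk samples, fewer cells of a type and less open DNA per cell cannot be told apart. With 1 pooled list per group there is no spread between replicates, so no test between the lists was made; intervals are exact 95% binomial (Clopper-Pearson) and cover counting error only. Region calls did not check the deletion, since Ifnar1 had 3 regions within 10 kb in knockout HSCs and 4 in knockout HPCs, and Ifnar2 had the same counts. The 25 genes of the HSC regulator list had 123 regions within 10 kb in HSCs and 162 in HPCs. Erg had 8 in HSCs and 17 in HPCs, Meis1 7 and 13, and Runx1 10 and 16, while Procr had 5 regions in each list, Mecom 16 in each, Hlf 3 in HSCs and 4 in HPCs, Slamf1 2 and 1, and Flt3, a receptor of early progenitors, 7 and 8. Cd48 had 1 in HSCs and 4 in HPCs. These counts are of the deposited lists, and the HPC list was the longer one. With the HPC list cut to the HSC list's length by −log10 p, the 25 genes had 123 regions in HSCs and 115 in HPCs. HPCs then had 10 regions each at Erg, Meis1 and Mecom and 11 at Runx1. Flt3 had 7 in the cut HPC list, Procr 5, Hlf 3, Cd48 2 and Slamf1 1.

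More of the HPC list than of the HSC list was specific. Of the HSC regions, 4396 (10.4%, interval 10.1 to 10.6%) had no overlap in HPCs. Of the HPC regions, 20910 (35.7%, interval 35.3 to 36.1%) had no overlap in HSCs. The HPC list was the longer one, so it was cut to the HSC list's number of regions by −log10 p; the last region kept and the first one dropped both had 44.9. The shares then came close: 8557 HSC regions (20.2%, 19.8 to 20.5%) and 9025 HPC regions (21.3%, 20.9 to 21.6%). With peaks cut to equal number before merging, the specific regions numbered 5027 in HSCs and 16742 in HPCs, so the closeness of the shares rests on how the cut was made. Few regions sat at the edge of the rule: 22 HSC-specific regions lay within 50 bp of an HPC region and 26 HPC-specific regions within 50 bp of an HSC region, while 8 shared HSC regions and 4 shared HPC regions overlapped by 50 bp or less.

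Most specific regions were weak, and the HPC excess was clearest among strong ones. Each list was split into 10 classes of equal size by −log10 p. The specific share of the HSC list was 38.3% in its weakest class and 0 of 4246 in its strongest, where the interval reached 0.0868%. That of the HPC list was 84.9% in its weakest class and 0.615% in its strongest. Strong regions were defined as the upper 50% of a list. Of these, 191 HSC regions (0.900%) and 3264 HPC regions (11.1%) were specific. At equal length, strong meant the upper 50% of the HSC list and of the cut HPC list. The strong specific regions then numbered 421 in HSCs (1.98%, 1.80 to 2.18%) and 1319 in HPCs (6.21%, 5.89 to 6.55%). All 3264 strong HPC-specific regions stayed in the cut list, and they left the count only where they fell below its limit of strength. The number of libraries differed with cell type (2 for HSCs and 3 for HPCs), and its part in these counts was not tested.

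**Figure D1:**
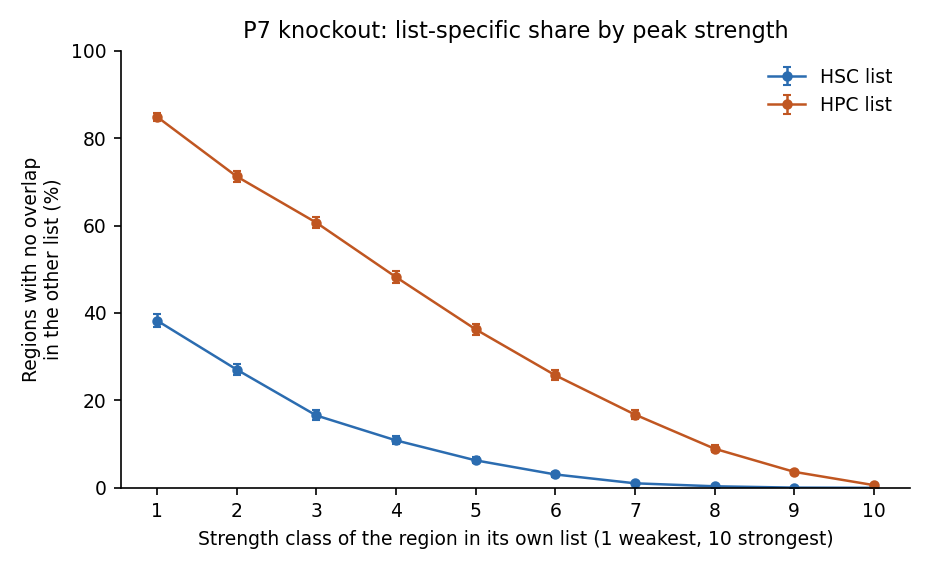
Percentage of regions with no overlap in the other list (y axis) in 10 classes of −log10 p within each knockout list (x axis, weakest to strongest); bars are exact 95% intervals. The HSC line falls to 0% and the HPC line to 0.615% in the strongest class, and the HPC line is the higher one in every class.

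The strongest HPC-specific regions lay near or inside Ptger2, Panx1, Nlrp1b and Galnt6. They were chosen as the highest values of the list, so these values are a description. The first was near Ptger2, the EP2 receptor for prostaglandin E2, at chr14:45011220-45011783 (mm10), 23109 bp from the gene's start. It was not called in P7 HSCs of either genotype and had 719.9 in knockout and 1324 in wild-type P7 HPCs. In the developmental set it was called in fetal HSCs at 25.9 and adult HSCs at 231, and in the 5 HPC lists at 449 to 1566. All 7 HPC lists and 2 of the 5 HSC lists thus had it. Inside Panx1, which encodes a channel that releases ATP, the region chr9:15017924-15018671 had 715 in knockout and 1248 in wild-type HPCs and again no call in either P7 HSC list. Sbk1, Rab39 and Ranbp10 had the same pattern at P7, with 492, 422 and 421 in knockout HPCs; Rab39 encodes a small GTPase of vesicle traffic.

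Other strong HPC-specific regions had a call in wild-type HSCs, whose list had a median of 66.8. Near Nlrp1b, an inflammasome sensor, the value was 559 in knockout HPCs, and wild-type mice had 67.0 in HSCs and 756 in HPCs. Galnt6, which starts mucin-type O-glycans, had 527 in knockout HPCs, and 70.1 in wild-type HSCs and 951 in wild-type HPCs. Both wild-type HSC calls lay just above that median. Ltc4s, leukotriene C4 synthase, had the highest wild-type HSC value of the 15 named HPC-specific regions: 489 in knockout HPCs with no call in knockout HSCs, and 274 in wild-type HSCs and 332 in wild-type HPCs. It was called in all 5 HSC lists except that of the knockout. Among the 15 named HPC-specific regions, Azin1, a regulator of polyamine synthesis, had 62.3 in wild-type HSCs and 599 in wild-type HPCs, and Brd7, a bromodomain protein of chromatin remodelling, 20.9 and 832; knockout HPCs had 470.3 and 429. Regions at Zfyve28, Ptpre, Ednrb and Zdhhc14 likewise had a call in wild-type HSCs.

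A subset followed cell type across the whole series. Of the strong specific regions, 10 HSC-specific (5.24%) were called in all 5 HSC lists and no HPC list, and 216 HPC-specific (6.62%) in all 7 HPC lists and no HSC list. The HPC set was led by a region inside Tgm2, transglutaminase 2, with 377 in knockout HPCs, 563 in wild-type P7 HPCs and 155 to 443 in the 5 HPC lists of the developmental set. Rfx4, a transcription factor gene, followed with 344 in knockout HPCs, then Lrguk with 332 and Ccdc93 with 302. Further ones lay inside Egln1, the oxygen-sensing prolyl hydroxylase PHD2 (244), and near Npc2, a lysosomal cholesterol carrier (238), and Tnfsf18, the ligand of GITR (215), all values in knockout HPCs. The HSC set was led by Ksr2, a scaffold of the Ras-MAP kinase cascade, with 83.9 in knockout HSCs, 88.03 in wild-type P7 HSCs and 48.1 to 197 in fetal, P14 and adult HSCs. Srcin1 had 69.7 and Rgl1, an exchange factor for Ral GTPases, 57.6 in knockout HSCs. Inside Anapc1, a subunit of the anaphase-promoting complex, knockout HSCs had 52.8 and wild-type P7 HSCs 59.3. Members of both sets were picked for this pattern, so it is a description.

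The HSC-specific regions were fewer. The strongest named one lay near Pomgnt2, an enzyme of O-mannosyl glycans, at chr9:122022536-122023371. It had 115 in knockout HSCs with no call in knockout HPCs, and 183 in wild-type HSCs against 53.9 in wild-type HPCs. A region inside Vdr, the vitamin D receptor, had 84.0 in knockout HSCs, and 124 in wild-type HSCs against 35.6 in wild-type HPCs. All 5 HSC lists had this region, at 62.4 to 232, as did 3 of 7 HPC lists, at 18.8 to 35.6. Regions inside Cic, a transcriptional repressor, and Rida were called at P7 in HSCs alone in both genotypes, with 87.5 and 88.1 in knockout HSCs and 109 and 111 in wild-type HSCs, although 3 and 2 HPC lists of the developmental set had them. Inside Vwa5b1 the values were 90.5 in knockout and 77.8 in wild-type HSCs, with 1 call among the 7 HPC lists. Foxk1, a forkhead factor of glycolytic genes, had a specific strong region of each kind, with 83.0 in knockout HSCs at one and 193 in knockout HPCs at the other. The first was also called in wild-type HPCs, at 37.3, and the second was not called in wild-type HSCs.

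**Figure D2:**
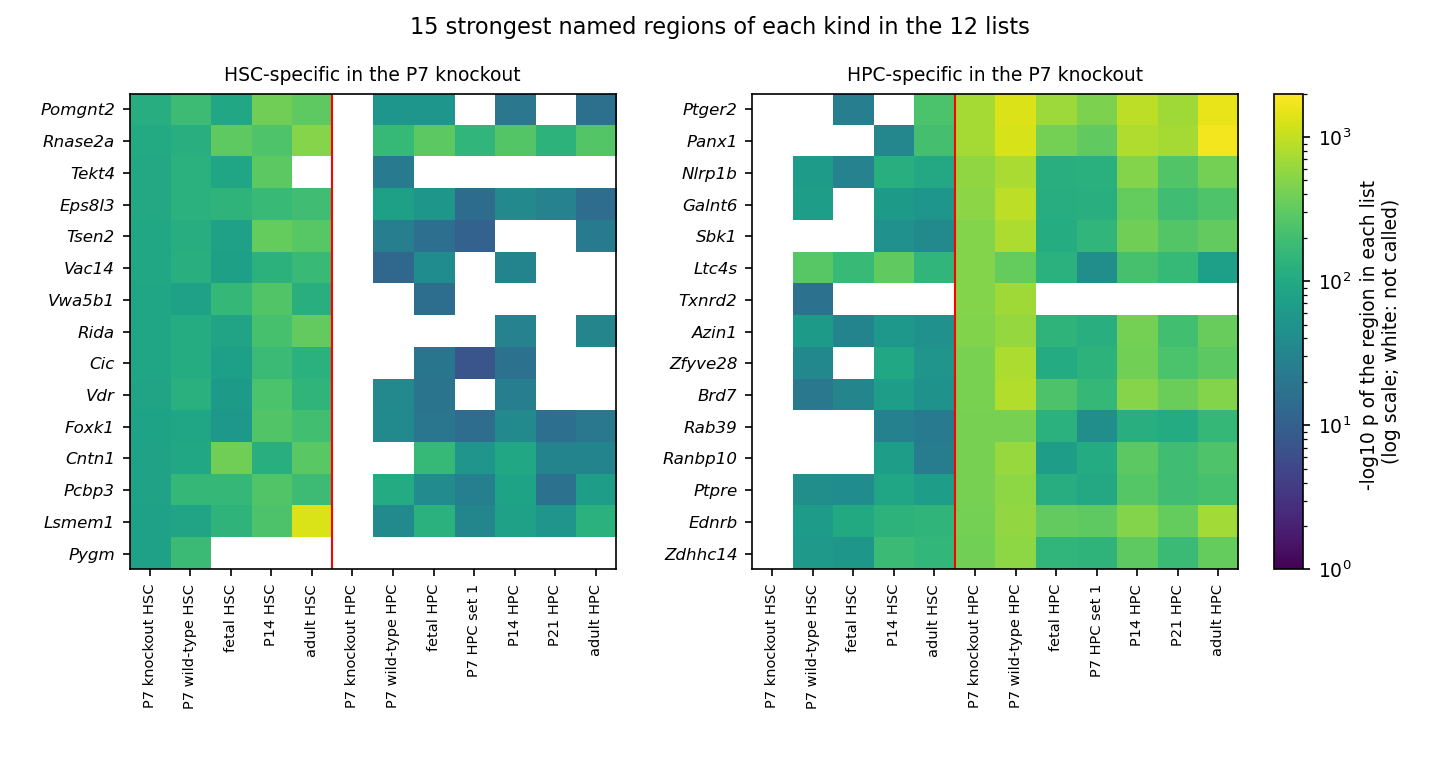
The −log10 p (colour, log scale; white where a list has no call) of the 15 strongest named HSC-specific regions (left) and HPC-specific regions (right) in the 5 HSC lists and, right of the red line, the 7 HPC lists. At Ptger2 the knockout HSC column is blank and the knockout HPC value is 719.9; at Pomgnt2 the knockout HSC value is 115 and the knockout HPC column is blank.

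The same regions were looked up in wild-type mice of the same age and set. Of the 191 strong HSC-specific regions of the knockout, 95 (49.7%, 42.4 to 57.0%) were called in wild-type HSCs alone, 91 (47.6%) in both wild-type lists, 3 in wild-type HPCs alone and 2 in neither. Of the 3264 strong HPC-specific regions, 1769 (54.2%, 52.5 to 55.9%) were called in wild-type HPCs alone, 1479 (45.3%) in both, 6 in wild-type HSCs alone and 10 in neither. Hence the direction seldom turned, and the usual difference was an added call in the other wild-type cell type. Those added calls were mostly weak: of the HPC-specific regions called in both, 87.8% lay below the median of the wild-type HSC list, with a median of 39.9 against that list's 66.8. Of the HSC-specific ones called in both, 90.1% lay below the median of the wild-type HPC list. The knockout HSC list is built on 2 libraries and the wild-type one on 3, which moves with the added HSC calls; its part was not tested.

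**Figure D3:**
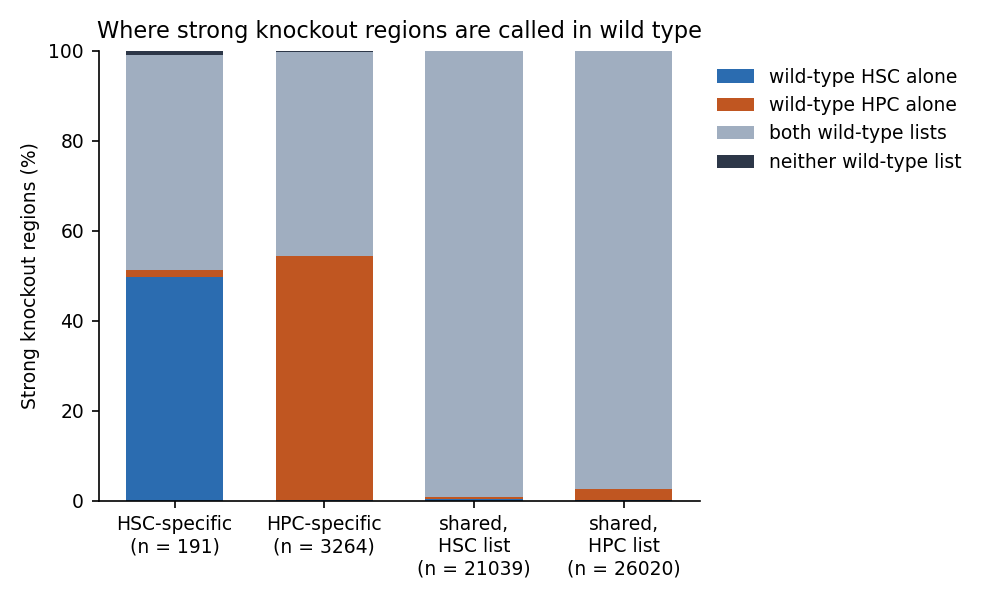
Percentage (y axis) of strong knockout regions called in wild-type HSCs alone, wild-type HPCs alone, both or neither, for HSC-specific, HPC-specific and shared regions of the knockout (bars; n under each). The HSC-specific bar holds 49.7% wild-type HSCs alone, the HPC-specific bar 54.2% wild-type HPCs alone, and both shared bars are nearly all called in both.

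With all 4 P7 lists cut to 42459 regions, the cell contrast was smaller in the knockout than in wild type in both directions. Strong HSC-specific regions numbered 421 in the knockout and 537 in wild type (2.53%, 2.32 to 2.75%), and strong HPC-specific ones 1319 in the knockout and 1830 in wild type (8.62%, 8.25 to 9.01%). Over all regions the counts were closer, 8557 HSC-specific in the knockout and 9016 in wild type, and 9025 and 9164 HPC-specific. With 1 list per group these differences were not tested over samples. Strong HPC-specific regions outnumbered strong HSC-specific ones at every age with both lists, at the same length: 433 HSC-specific and 936 HPC-specific strong regions in fetal cells, 1179 and 1768 at P14, and 1078 and 1763 in adults. Strong regions called in 1 genotype alone were fewer. At the same length they numbered 100 in knockout and 181 in wild-type HSCs, and 16 in knockout and 30 in wild-type HPCs.

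Strong specific regions kept the same order in the 10 lists that played no part in choosing them. The developmental lists among these are longer and of the other kind, so shares are set beside those of shared regions. Strong HSC-specific regions were called at 97.4% in wild-type P7 HSCs and 49.2% in wild-type P7 HPCs; in the developmental set they were called at 95.8 to 99.5% in the 3 HSC lists and 52.4 to 84.8% in the 5 HPC lists. Strong HPC-specific regions were called at 45.5% in wild-type P7 HSCs and 99.5% in wild-type P7 HPCs; in the developmental set the shares were 69.5 to 77.7% in HSC lists and 89.98 to 97.8% in HPC lists. Shared regions in the same strength classes were called at 96.3 to 99.2% in those HSC lists and 94.0 to 98.4% in those HPC lists. With weak regions included the contrast was smaller: all HSC-specific regions were called at 52.3% in wild-type HSCs and 44.6% in wild-type HPCs, and all HPC-specific ones at 27.8% in wild-type HSCs and 79.1% in wild-type HPCs. At equal length, HSC-specific regions were called at 59.2% in wild-type HSCs and 60.5% in wild-type HPCs, so the second share was the higher one. The wild-type lists were left uncut there. The 8557 HSC-specific regions at equal length, against 4396 as deposited, include regions that the uncut knockout HPC list calls. These shares therefore cannot decide that order.

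**Figure D4:**
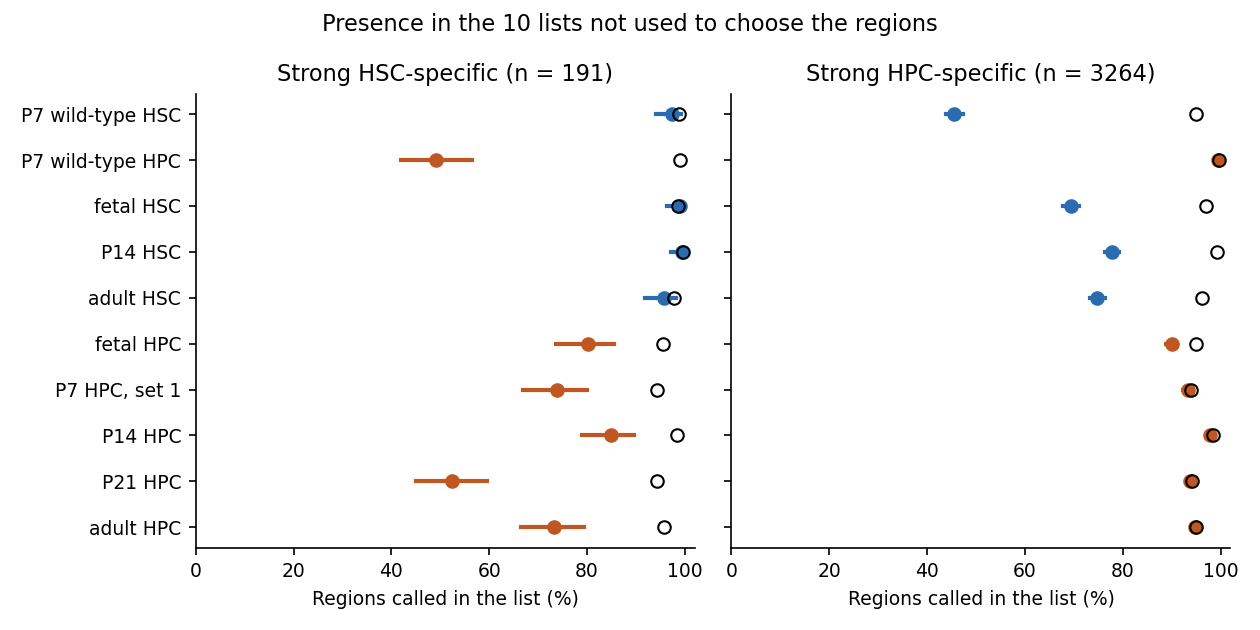
Percentage (x axis) of strong HSC-specific regions (left) and strong HPC-specific regions (right) of the knockout called in each of the 10 other lists (rows); filled points are HSC lists in blue and HPC lists in orange with exact 95% intervals, and open circles are shared regions of the same strength classes. The HPC-specific points are lowest in wild-type HSCs (45.5%), and the HSC-specific points are lowest in wild-type HPCs (49.2%).

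Regions within 10 kb of genes in 18 lists were then counted, each region once per list. Strong specific regions lay within 10 kb of 0.606% of 21631 protein-coding genes for HSCs and 10.6% for HPCs. Over the 247 list genes, 2 of 358 strong HSC regions were specific and 52 of 478 strong HPC regions (10.9%), near the shares of all strong regions (0.900% and 11.1%). The list counts are descriptions, with no test.

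Among the lists with at least 10 strong HPC regions, that of cytokine, chemokine and prostaglandin receptors had the highest HPC-specific share. Lists and members were chosen with earlier results of these data known, so its rank is a description. The list holds Ptger2, the gene named for the strongest HPC-specific region. Macrophage (2 of 4) and hepatocyte markers (3 of 7), below that limit, had higher shares. For these receptors, 0 of 21 strong HSC regions and 10 of 44 strong HPC regions (22.7%, 11.5 to 37.8%) were specific, beside 11.1% of all strong HPC regions. At Il1r1, whose promoter was HSC-specific, a region 4307 bp from the start had 227 in knockout HPCs with no call in knockout HSCs, and 24.5 in wild-type HSCs against 409 in wild-type HPCs. Il6ra, the interleukin-6 receptor, had 95.4 and 204 at its pair of HPC-specific regions in knockout HPCs, with no call in either P7 HSC list. Ccr2, a receptor for monocyte chemokines, had 94.9 and 188 in knockout HPCs. Tgfbr1 and Tgfbr2, both chains of the TGF-β receptor, had 173 and 140.2, and Tnfrsf1b, a TNF receptor, 81.6 in knockout HPCs. Wild-type P7 HSCs had calls at the Tgfbr1 region (43.3) and at the second Ccr2 region (63.6). They had none at the first Ccr2 region or at those of Tgfbr2 and Tnfrsf1b. The wild-type count for this list was 11 of 49 strong HPC regions (22.4%, 11.8 to 36.6%), beside 14.2% of all strong wild-type HPC regions.

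Lymphoid genes were HPC-specific at some of their regions. For lymphoid priming, 0 of 33 strong HSC regions and 7 of 45 strong HPC regions (15.6%, 6.49 to 29.5%) were specific. That interval takes in the 11.1% of all strong HPC regions. In wild-type HPCs 7 of 51 (13.7%) were specific, beside 14.2% of all strong regions of that list, so the list did not stand out. Dntt encodes the terminal transferase that diversifies antigen receptors. A region inside the gene, chr19:41039043-41039603, had 137 in knockout and 279 in wild-type P7 HPCs and 53.8 to 300.3 in the other HPC lists, and no HSC list had it. Ebf1, the B-lineage transcription factor, had a region with the same pattern at chr11:44881134-44881754, with 133 in knockout and 259 in wild-type P7 HPCs. Near Igll1 and Vpreb1, which encode the surrogate light chain of pre-B cells, the region chr16:16865053-16865862 had 195 in knockout HPCs and was called in 1 HSC list, that of adults, at 77.8. Satb1, Lef1 and Mef2c, transcription factor genes, had 173, 180.2 and 87.9 in knockout HPCs, with wild-type HSC calls at 52.9, 34.4 and 25.4.

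The lists of interferon signalling had HPC-specific shares near that of all strong regions. For receptors and signalling, 0 of 24 strong HSC regions and 4 of 33 strong HPC regions (12.1%) were specific. Inside Il10rb, the second chain of the interleukin-10 receptor and a neighbour of Ifnar2 within 10 kb, chr16:91412854-91413613 had 123 in knockout and 262 in wild-type P7 HPCs and no call in P7 HSCs of either genotype. Ifngr2, a chain of the type II interferon receptor, had 79.1 and the kinase gene Jak1 78.7 in knockout HPCs. Wild-type P7 HSCs had the Jak1 region, at 20.6, and not that of Ifngr2. For interferon-stimulated genes, 0 of 25 strong HSC regions and 2 of 29 strong HPC regions were specific, those of Bst2, a tether of budding viruses (109 in knockout HPCs), and Zbp1, a nucleic acid sensor (78.8), both also called in wild-type HSCs. At equal length, with strong set anew in the cut list, this list had 2 strong HSC-specific and 0 strong HPC-specific regions. The Bst2 and Zbp1 regions stayed HPC-specific in the cut list, below its limit of strength. Isg15 and Irf7 had no specific region in the knockout, with 2 and 3 regions in each list. For antigen presentation, 0 of 21 strong HSC regions and 4 of 28 strong HPC regions (14.3%) were specific, beside 11.1% of all strong HPC regions. One region inside the peptide transporter gene Tap1, within 10 kb of Psmb8, Psmb9 and Tap2, chr17:34196460-34196999, had 178 in knockout and 260.3 in wild-type P7 HPCs and was called in all 7 HPC lists and no HSC list.

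As deposited, HSC regulators held the only strong HSC-specific regions of the 18 lists. For these genes, 2 of 57 strong HSC regions and 4 of 72 strong HPC regions were specific (3.51% and 5.56%). Over all strong regions the shares were 0.900% and 11.1%. In wild type the counts were 1 of 66 and 13 of 90. At equal length they were 2 HSC-specific and 0 HPC-specific in the knockout. Runx1, a master factor of definitive blood, had one of each kind. Its HSC-specific region, chr16:92653835-92654232, had 76.7 in knockout and 65.7 in wild-type P7 HSCs and was called in all 5 HSC lists and 2 of 7 HPC lists. Its HPC-specific region, chr16:92715501-92716365, had 101 in knockout and 152 in wild-type P7 HPCs and was called in all 7 HPC lists and no HSC list. Mecom, which encodes the HSC factor EVI1, also had one of each, with 68.5 in knockout HSCs and 112 in knockout HPCs. Its HSC-specific region was also called in wild-type P7 HPCs, at 29.0, and in 4 of 7 HPC lists. Its HPC-specific region had no call in wild-type P7 HSCs. Meis1 and Prdm16, both needed in HSCs, had HPC-specific regions at 103 and 94.0 in knockout HPCs. Wild-type P7 HSCs had a call at that of Prdm16, at 41.1, and none at that of Meis1. Cell cycle genes had 0 of 42 strong HSC regions and 5 of 53 strong HPC regions (9.43%) specific, the latter near the 11.1% of all. Among them were Cdk6, a kinase of cell cycle entry, at 109 and 196 in knockout HPCs, and Ccnd3, its cyclin partner, at 185. Wild-type P7 HSCs also had both Cdk6 regions, at 32.2 and 16.3, and had no call at that of Ccnd3. Of the 12 lists, only that of knockout HSCs lacked the Cdk6 regions. Immediate early genes had none, 0 of 32 strong HSC regions and 0 of 35 strong HPC regions, and 2 of 39 in wild-type HPCs.

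Myeloid genes had 0 of 22 strong HSC regions and 1 of 25 strong HPC regions specific, erythroid and megakaryocytic genes 0 of 33 strong HSC regions and 2 of 42 strong HPC regions, and sort markers 0 of 17 strong HSC regions and 1 of 21 strong HPC regions. At equal length, with strong set anew in the cut list, the erythroid and megakaryocytic list had 1 strong HSC-specific and 0 strong HPC-specific regions. Markers of other cell types that a sort could carry had strong regions in both lists. Macrophage markers had 0 of 2 strong HSC regions and 2 of 4 strong HPC regions specific. B cell markers had 0 of 11 strong HSC regions and 3 of 18 strong HPC regions specific. T and NK cell markers had 0 of 8 strong HSC regions and 0 of 9 strong HPC regions specific. Mast cell and basophil markers had 0 of 1 strong HSC regions and 0 of 1 strong HPC regions specific. Endothelial markers had 0 of 12 strong HSC regions and 2 of 16 strong HPC regions specific. Stromal markers had 0 of 6 strong HSC regions and 2 of 10 strong HPC regions specific. Hepatocyte markers had 0 of 3 strong HSC regions and 3 of 7 strong HPC regions specific. The hepatocyte regions lay at Hnf4a, a liver transcription factor (89.5 and 112 in knockout HPCs), and Afp, alpha-fetoprotein (80.4); the endothelial ones at Pecam1 (183) and Plvap (128); and one macrophage region near Marco (127). Wild-type P7 HSCs had calls at the first Hnf4a region (43.3) and at those of Pecam1 (71.4) and Plvap (41.6). They had none at the second Hnf4a region or at those of Afp and Marco. Fetal, P14 and adult HSCs had calls at the regions of Afp (65.3, 56.6 and 109) and Marco (68.6, 51.9 and 123). P14 HSCs also had the second Hnf4a region, at 34.8. Of the other hepatocyte markers, Alb, Ttr, Serpina1a and Cyp3a11 had no region in either knockout list, and the regions at Apoa1 and Fgb were shared. The part of such cells in the HPC-specific regions was not tested. At equal length 5 strong HSC-specific and 22 strong HPC-specific regions were counted over all lists, 7 of the HPC-specific ones at the receptor list and 5 at lymphoid priming.

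**Figure D5:**
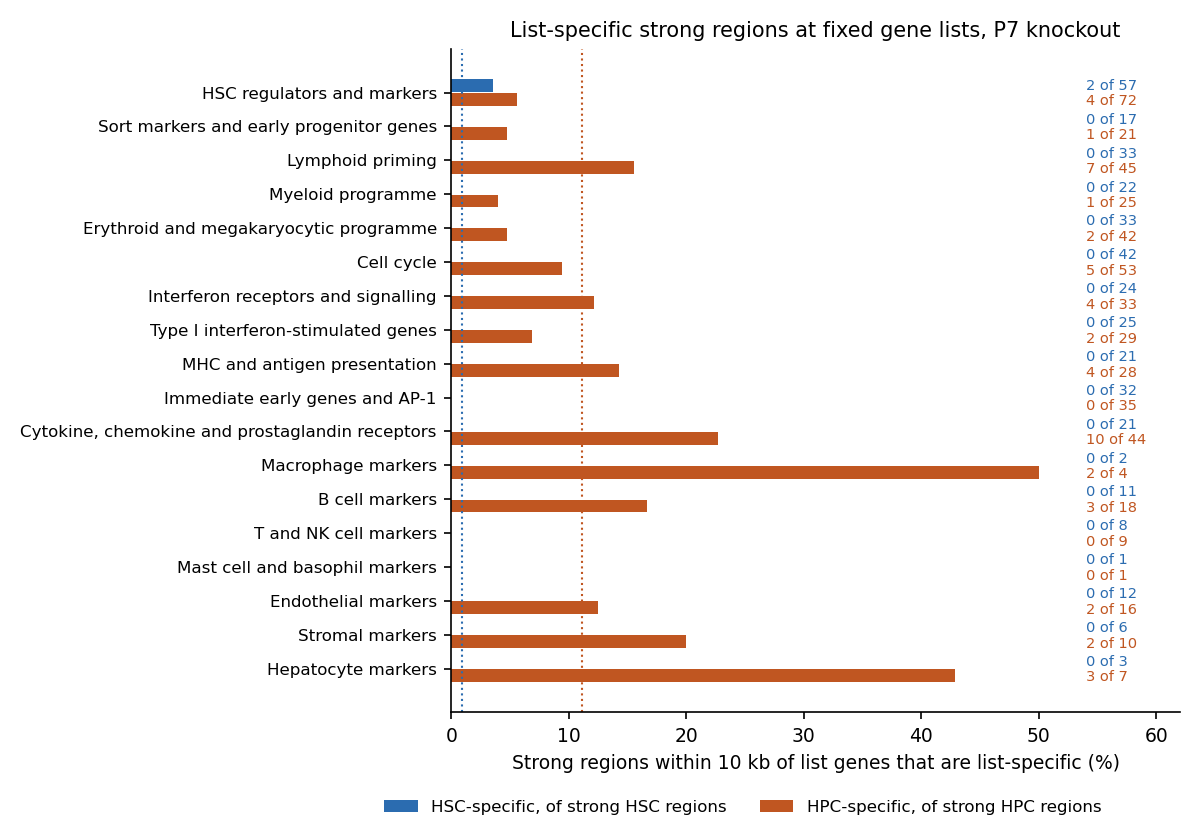
Percentage (x axis) of strong regions within 10 kb of each list's genes (rows) that were specific to knockout HSCs (upper bar, blue) or knockout HPCs (lower bar, orange), with counts at the right; dotted lines give the share over all strong regions of each list (0.900% and 11.1%). The receptor list stands at 22.7% for HPCs, and HSC regulators are the only row with a blue bar.

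Specific regions of both cell types lay mostly away from gene starts. Within 1 kb of a gene start were 11.2% of HSC-specific regions (10.3 to 12.2%) and 9.67% of HPC-specific regions (9.28 to 10.1%), beside 32.8% and 32.6% of the shared regions of the HSC and HPC lists. Shared regions in the same strength classes gave 21.5% for HSCs and 20.3% for HPCs. Among strong specific regions the shares were 7.33% in HSCs and 5.76% in HPCs. Away from starts, 46.6% of HSC-specific and 48.3% of HPC-specific regions lay inside a gene's span; exons and introns could not be told apart with the gene table used. Specific regions were narrower than shared ones, with a median width of 375 bp against 555 bp in HSCs and 440 bp against 644 bp in HPCs. They were also weaker, with a median −log10 p of 23.6 against 56.6 in HSCs and 40.4 against 122 in HPCs. Widths were not matched for strength. Among strong regions the median widths were 511 bp against 641 bp in HSCs and 557 bp against 704 bp in HPCs.

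By chromosome, the HSC-specific share ran from 7.49% on chromosome 11 to 14.1% on chromosome X, and the HPC-specific share from 33.0% on chromosome 19 to 38.7% on chromosome 1. The X chromosome was high for HSC-specific regions (118 of 836) and 8.05% of its strong HPC regions were specific. The labels do not give the sex of the mice.

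At gene starts, 234 of 21045 promoters (1.11%) held an HSC-specific region and 907 (4.31%) an HPC-specific one, while 10666 were called in both. In wild type, 53 of the HSC-specific promoters were HSC-specific, 30 HPC-specific, 85 called in both, 53 in neither and 13 at the edge of a shared region. Of the HPC-specific promoters, 58 were HSC-specific, 306 HPC-specific, 371 called in both, 146 in neither and 26 at such an edge. The 6 promoters printed above belong to those specific in both genotypes. Other members of the gene lists among them were, on the HPC side, Lef1 (52.3 in knockout HPCs), the interferon-induced Oas3 (58.9), the Fc receptor gene Fcgr3 (53.5) and Nkg7, a granule gene of cytotoxic cells (38.5). Base composition differed little between the specific sets, with a median GC content of 60.7% for HSC-specific and 60.3% for HPC-specific promoters against 56.7% for all. Promoters called in both lists had 62% and those called in neither 48.7%. The ETS letters were in 14.5% of HSC-specific, 24.4% of HPC-specific and 24.97% of all promoters, and the RUNX letters in 1.71%, 4.85% and 4.74%. Of promoters called in both lists, 28.9% had the ETS letters and 3.38% the RUNX letters. The Il7r promoter above holds an ETS and a RUNX match, and so does that of Rag1; a match is a run of letters and not a site shown to be bound.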

How the data were processed

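ATAC-seq libraries of P7 knockout HSCs (2) and HPCs (3) and wild-type HSCs and HPCs (3 each) were analysed from 12 peak lists in narrowPeak layout, 1 per group. Per the submitters' processing notes, Bowtie2 and MACS2 and the build mm10/GRCm38 were used; versions, thresholds, filters and any shift of reads for Tn5 are not stated in the sources used here. The deposited columns hold a display score, a fold (ratio) of signal over background, −log10 p and −log10 q as the authors' caller gave them; the lists carry no counts or depth.

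Peaks on chromosomes 1 to 19 and X were merged into regions with the highest −log10 p of their peaks (Python 3.11.15, pandas 2.3.3, scipy 1.17.1). Overlap and merging were checked against bedtools 2.31.1. Overlap was also run on a copy of the knockout HPC list with known strong regions removed, which checks the code alone. Regions were named by the nearest end of a protein-coding gene within 50 kb, leaving out predicted genes; the 15 strongest specific regions per list, and up to 4 members per gene list were named, as were Cd48, Cdk6, Mecom, Hlf, Procr, Slamf1, Flt3, Ebf1, Ptger2, Panx1, Ccdc93, Ifnar1, Ifnar2, Isg15 and Irf7. The printed promoters, the regions called in all lists of 1 cell type and the genes of the closing section were chosen after their values were seen. Gene starts came from RefSeq (GRCm38.p6) for 17274 of 21631 genes; for the other 4357 genes either end was used. Of 256 gene list entries 254 matched; Mx1 and Mx2 did not. Items withheld for evaluation are not reported here. The members and lists were chosen with earlier results of these data known. Alternatives changed the overlap, list length, strength limit, window and ranking value. Motifs in distal regions were not analysed, since no genome sequence was used here.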

Additional observations from a re-analysis of the deposited data

Results flagged for a closer look

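Some regions were called in one cell type alone in the knockout and in the other cell type alone in wild type. Of the 4396 HSC-specific regions of the knockout, 811 (18.4%) were called in wild-type HPCs alone, 3 of them strong. Of the 20910 HPC-specific regions, 704 (3.37%) were called in wild-type HSCs alone, 6 of them strong. The difference between genotypes was not tested, since each group has 1 pooled list. The strongest of the first kind, 208260 bp from Ccdc54, had 60.4 in knockout HSCs, against 58.6 in wild-type HPCs, and was called in all 8 lists of the developmental set. The strongest of the second kind, inside Sema4d, which encodes a semaphorin of immune cells, had 128 in knockout HPCs and no call in knockout HSCs, and in wild type 28.3 in HSCs and no call in HPCs. Near Unc93b1, a chaperone of nucleic acid-sensing Toll-like receptors, the values were 105 in knockout HPCs and 55.3 in wild-type HSCs, with no call in the other cell type of either genotype.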

How the results depend on the processing

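The counts of specific regions moved by less than 1.5 times under every alternative tried (overlap of 50% of a region, summit overlap, a −log10 q of at least 5, no merging, autosomes only). At equal length, ranking by fold or a 50% overlap also stayed within 1.5 times, while cutting peaks before merging gave 5027 HSC-specific and 16742 HPC-specific regions, so the near balance of both shares depends on that choice. Strong specific regions numbered 7 in HSCs and 480 in HPCs in the upper 25% of each list, 1239 and 9895 in the upper 75%, and 421 and 1319 at equal length; HPCs had more in each. As deposited, strong regions of 1 cell type alone numbered 191 (HSC) and 3264 (HPC) in the knockout and 221 and 4690 in wild type.

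Presence of HSC-specific regions in wild-type HSCs was 97.4% for strong regions and 59.2% at equal length, and in wild-type HPCs 49.2% and 60.5%. At equal length the HPC share was the higher one, but only the knockout HPC list was cut. The HSC-specific regions then include some that its uncut form calls, so these shares cannot decide the order. Presence of HPC-specific regions was 26.5%, 45.5% and 39.4% in wild-type HSCs and 78.4%, 99.5% and 96.4% in wild-type HPCs, with 50% covered, for strong regions and at equal length. Within 5 kb of a gene start lay 19.5% of HSC-specific, 21.9% of HPC-specific, and 41.9% and 41.7% of shared regions (HSC and HPC lists); for strong regions at 1 kb 7.33%, 5.76%, 41.7% and 38.3%; and with either gene end, an alternative chosen after seeing the data, 10.7% of HPC-specific, 31.9% and 31.9% of shared regions.

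More HPC-specific than HSC-specific strong regions were found at 15 of 18 gene lists, and at 9 at equal length. There the HPC minus HSC count turned to -2 regions for HSC regulators, -1 for erythroid and megakaryocytic genes and -2 for interferon-stimulated genes. All strong HPC-specific regions of the deposited list, at 78.4 or more, stayed in the cut list, which ended at 44.9. They left these counts only through the limit of strength, which was set anew in the cut list. HSC-specific regions were gained where the cut removed an HPC region. What the turns mean for these genes was not tested. Motifs and GC content of distal regions were not run, since no genome was at hand. No paired analysis was possible because each group has 1 pooled list, and for the same reason no library could be left out. Depth per list is unknown, so an absent call means not detected at that depth.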

Other observations

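Many strong specific regions were missing from a single list of the 12, that of the other cell type in the knockout. This held for 52 of 191 strong HSC-specific regions (27.2%) and 1029 of 3264 strong HPC-specific regions (31.5%). A region 10017 bp from Rnase2a, an eosinophil-type ribonuclease, had 103 in knockout HSCs and 120.2 to 502 in the 10 other lists, with no call in knockout HPCs.

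Among the 30 named regions, a pair was called in the P7 wild-type and knockout set alone. The lists of the developmental set are of another kind. The one near Pygm, muscle glycogen phosphorylase, had 77.0 in knockout and 175 in wild-type P7 HSCs and no call in the 10 other lists. The one inside Txnrd2, mitochondrial thioredoxin reductase, had 485 in knockout HPCs, and 17.7 in wild-type HSCs and 674 in wild-type HPCs, and no call in the 8 lists of the developmental set. Maml3, a coactivator of Notch signalling, and Sema4d had the most strong HPC-specific regions within 10 kb, 6 each.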
